A study of Mus musculus with 56 samples.

Results

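The mitochondrial ribosomal protein genes encode the protein part of the ribosome that works inside mitochondria. They were taken as the protein-coding genes of GENCODE vM21 (GRCm38) whose symbol begins with Mrpl or Mrps followed by a digit, which gave 78 genes. Of these, 77 are listed in the count files under their Ensembl identifier, among 45513 genes in all, and 75 passed the filter on low counts, among 14314 genes tested. Mrpl33 was not matched under its identifier, and Mrpl53 and Mrps36 did not pass the filter. The data are liver RNA-seq read counts of 56 female APOE*3Leiden.CETP mice, 8 in each of 7 groups. All mice were transgenic for APOE*3Leiden and CETP, which gives them a human-like lipoprotein profile, and all ate a Western-type diet with 0.15% cholesterol and 15% cacao butter. Mice aged 9 to 14 weeks were used. Per the study's methods, a run-in of 3 weeks on the diet came before 16 weeks of treatment, so they were older at sampling. Control mice received the vehicle, 5% carboxymethyl cellulose. The others received imatinib at 150 mg/kg 2 times daily, nilotinib at 10 or 30 mg/kg once daily, ponatinib at 3 or 10 mg/kg once daily, or L-NAME at 0.12 to 0.20% in the drinking water together with the vehicle. The 3 kinase inhibitors are oral drugs against BCR-ABL1 in chronic myeloid leukemia, and L-NAME blocks nitric oxide synthases. Mice other than those on imatinib had the vehicle as a second gavage. The paper does not describe the L-NAME group, so the 16 weeks and the second gavage are stated there for the other groups only. There was no group without the diet or the transgenes, so all comparisons are between mice of this one hyperlipidemic model.

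Mitochondria make the few respiratory chain subunits that their own DNA encodes on a dedicated ribosome with a large and a small subunit. Its RNA is transcribed from mitochondrial DNA, but every one of its proteins is encoded in the nucleus, made in the cytosol and imported. Some of these proteins have a counterpart in the bacterial ribosome and others exist in mitochondria only. Hepatocytes are rich in mitochondria, and in bulk liver RNA a difference in the make-up of cells and a difference in RNA per cell cannot be told apart.

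Promoters of 4 members are shown. They belong to the 5 genes of smallest p among 7 that rose with imatinib, nilotinib 30 mg/kg and ponatinib 10 mg/kg, and the other one, Mrps34, was not matched in the promoter table. Of the 7, Mrpl24 and Mrps24 are not shown, and the Mrpl24 promoter held none of the motifs searched, while that of Mrps24 held the YY1 core. Each sequence is RefSeq's on GRCm38.p6, read 5′ to 3′ on the gene's strand, from 250 bases before to 50 bases after a start site. Capitals mark 2 of the 3 short motifs searched, on either strand. These are the core CCGGAAG, which the ETS factor GABP binds, and the core AAGATGGC of YY1. The third, the NRF1 core CGCATGCG, was in none of these windows. Mrpl58 lies at chr11:115403502-115403801 on the + strand, Mrps16 at chr14:20393441-20393740 on the - strand, Mrpl18 at chr17:12916042-12916341 on the - strand and Mrps7 at chr11:115603890-115604189 on the + strand.
Mrpl58: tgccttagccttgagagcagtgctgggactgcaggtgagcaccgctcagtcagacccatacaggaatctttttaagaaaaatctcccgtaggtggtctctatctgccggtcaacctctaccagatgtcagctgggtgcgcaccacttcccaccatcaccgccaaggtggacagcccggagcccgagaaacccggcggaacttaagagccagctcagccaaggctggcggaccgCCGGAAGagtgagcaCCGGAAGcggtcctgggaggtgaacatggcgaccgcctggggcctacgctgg
Mrps16: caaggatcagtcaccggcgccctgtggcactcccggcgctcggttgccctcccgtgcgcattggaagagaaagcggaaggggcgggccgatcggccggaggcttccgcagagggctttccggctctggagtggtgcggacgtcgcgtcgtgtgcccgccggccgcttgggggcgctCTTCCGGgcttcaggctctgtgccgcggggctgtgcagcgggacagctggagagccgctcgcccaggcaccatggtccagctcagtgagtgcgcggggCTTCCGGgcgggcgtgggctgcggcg
Mrpl18: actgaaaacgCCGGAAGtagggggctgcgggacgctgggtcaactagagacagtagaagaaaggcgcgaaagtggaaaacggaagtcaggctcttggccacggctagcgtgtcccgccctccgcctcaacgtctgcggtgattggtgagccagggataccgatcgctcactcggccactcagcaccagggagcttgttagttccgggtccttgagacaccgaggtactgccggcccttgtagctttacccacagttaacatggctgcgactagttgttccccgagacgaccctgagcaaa
Mrps7: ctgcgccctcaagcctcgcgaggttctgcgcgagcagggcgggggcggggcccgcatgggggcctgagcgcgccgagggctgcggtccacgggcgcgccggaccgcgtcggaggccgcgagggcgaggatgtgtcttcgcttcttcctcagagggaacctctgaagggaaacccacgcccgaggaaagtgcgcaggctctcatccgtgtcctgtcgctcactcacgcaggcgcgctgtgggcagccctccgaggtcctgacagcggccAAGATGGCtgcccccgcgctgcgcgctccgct
Mrpl58 and Mrps16 each hold the GABP core at 2 places, Mrpl18 holds it at 1 place and Mrps7 holds the YY1 core. A further Mrps16 start site has a window with none of the motifs. Promoters were matched for 66 of the 75 tested members by symbol, with 72 windows. The GABP core was in 33.3% of the windows of members, in 16.3% of those of all tested genes that matched and in 8.86% of all 32851 windows. The YY1 core was in 16.7%, 4.14% and 2.75% of them, and the NRF1 core in 9.72%, 3.56% and 1.87%. A match is a stretch of letters and was not tested as a binding site.

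The depth, as reads assigned to genes, ranged from 5342379 to 17996732 in 55 of the mice and was 97473341 in the remaining one, an L-NAME mouse. The tested members took between 11336 and 33737 reads in every mouse but that one. Reads outside annotated genes made up 7.97% ± 0.42 (SD, n = 8) of uniquely aligned reads in control mice, and the group means of the treated mice lay between 8.53% with ponatinib 3 mg/kg and 11.0% with ponatinib 10 mg/kg. Hepatocyte markers were abundant in all mice, with summed levels between 56180 and 135300 CPM. CPM, the unit of level used here, divides a gene's count by the TMM-scaled depth of its library. Of 8 such markers, the secreted-protein genes Serpina1a and Ttr rose and Cps1 and Tat fell with imatinib, and Cps1 fell in 5 of the 6 treated groups. Serpina1a also rose with nilotinib 30 mg/kg, ponatinib 10 mg/kg and L-NAME, and Ttr with ponatinib 10 mg/kg. Tat also fell with nilotinib 10 mg/kg, nilotinib 30 mg/kg and L-NAME, and Hnf4a with nilotinib 30 mg/kg and L-NAME. Kupffer cell and macrophage markers summed to 910 to 1755 CPM in control mice and to 556.6 to 1135 CPM with imatinib, where 4 of 10 such markers fell. Of the 10, 2 rose and 1 fell with ponatinib 10 mg/kg, and 1 rose with nilotinib 30 mg/kg and with L-NAME. By edgeR 0 sinusoidal endothelial, cholangiocyte and lymphocyte markers passed against control, up to 3 of a list in a group had an unadjusted p below 0.05, and DESeq2 called 1 of them in all and limma voom 3. Finally, 1 of 9 stellate cell markers, Ecm1, rose with imatinib and with ponatinib 10 mg/kg, while the list's median log2 fold change was -0.23 in both groups. At an unadjusted p below 0.05 in edgeR, 2 of the 9 were higher and 2 lower with imatinib. With ponatinib 10 mg/kg 1 was higher and 2 lower. DESeq2 also called Pdgfrb lower with imatinib. Whether these shifts have a part in the results on the members was not tested.

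In control liver the members covered a wide range of levels. Per kilobase of transcript, Mrpl14, Mrpl12 and Mrpl30, all of the large subunit, stood highest with 65.3, 56.5 and 51.6 CPM per kb. Lowest among all members listed were Mrpl53, Mrps36 and Mrpl23, with 0.0988, 0.102 and 0.595 CPM per kb. Mrps36 had between 0 and 0.364 CPM in control mice. The protein of Mrps36 is now regarded as a component of the 2-oxoglutarate dehydrogenase complex and not of the ribosome. Of the exon bases of Mrpl53, 88.0% are shared with Gm42688 or Ccdc142os, and reads that fit more than 1 gene were counted on none, so its level is uncertain. The same holds for Mrps34, with 77.8% of its exon bases in Nme3 or Mapk8ip3.

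The mean summed level of the members was higher in every treated group than in control, and in the edgeR fit of all 56 mice with TMM scaling no member was called lower in any comparison. The summed level of the 75 tested members was lowest at 1753, median 1846 and highest at 2136 CPM in control mice, with a mean of 1915 ± 158 CPM (SD, n = 8). With imatinib it ran from 2073 over a median of 2550 to 2756 CPM, with a mean of 2499 ± 239 CPM. With ponatinib 10 mg/kg it ran from 1892 over 2557 to 2643 CPM, with a mean of 2442 ± 254 CPM. In 7 of the 8 mice of each of these groups the sum lay above the highest control mouse. With nilotinib 30 mg/kg it ran from 2144 over 2350 to 2455 CPM, a mean of 2304 ± 120 CPM, and with L-NAME from 2109 over 2359 to 2739 CPM, a mean of 2378 ± 223 CPM. All 8 mice with nilotinib 30 mg/kg were above every control mouse, and 6 of 8 with L-NAME. At the low doses the ranges overlapped those of control, with 1972 to 2510 CPM (mean 2168 ± 190) for nilotinib 10 mg/kg and 1902 to 2387 CPM (mean 2140 ± 185) for ponatinib 3 mg/kg. In each of these groups 4 of 8 mice were above the highest control mouse.

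**Figure D1:**
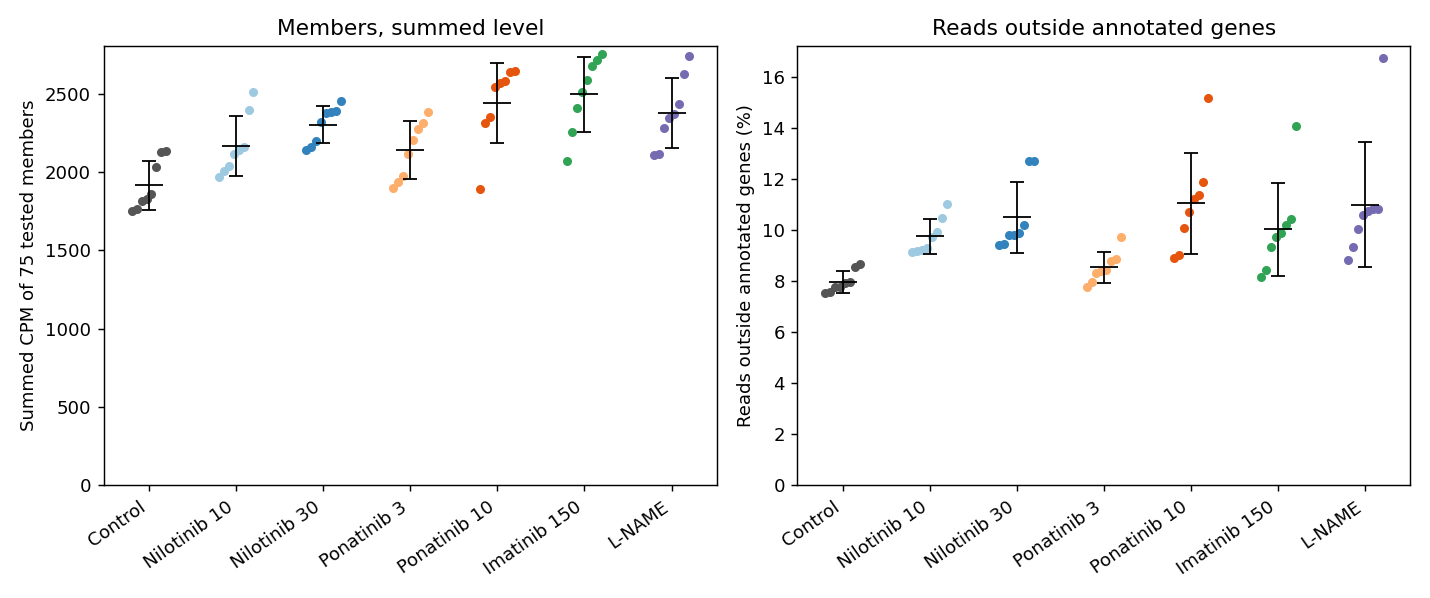
Each point is a mouse, the horizontal mark is the group mean and the bar its SD (n = 8 per group), with summed CPM of the 75 tested members on the left and the percent of reads outside annotated genes on the right. Control mice sit between 1753 and 2136 CPM on the left and all 8 mice with nilotinib 30 mg/kg lie above them, while 1 mouse with ponatinib 10 mg/kg sits at 1892 CPM, and on the right the control mean of 7.97% is the lowest of the 7 groups.

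Each treated group was compared with control by edgeR's quasi-likelihood test, fitted over all 56 mice, and a gene was called at a Benjamini-Hochberg adjusted p below 0.05 over all genes tested. With imatinib, 26 of the 75 members rose and 0 fell, where 5.69% of all genes tested were called higher and 4.58% lower. The median log2 fold change of the members was 0.41, or 1.33-fold, and that of all genes was -0.02. A larger number, 29, rose and 0 fell with ponatinib 10 mg/kg, beside 7.24% of all genes higher and 5.87% lower, with a member median of 0.43. With nilotinib 30 mg/kg 11 rose and 0 fell, beside 2.34% higher and 3.43% lower, with a median of 0.33. That count was 6 when the deepest L-NAME library was left out of the fit, also 6 without the 3 libraries of 13% or more reads outside genes, and 5 without the filter on low counts. With L-NAME 22 rose and 0 fell, beside 5.55% higher and 6.24% lower, with a median of 0.36. With nilotinib 10 mg/kg 1 member rose, Mrps26, and 0 fell, beside 0.468% higher and 0.943% lower, with a median of 0.22. Mrps26 was not called without the filter, with the covariate for reads outside genes or without those 3 libraries. With ponatinib 3 mg/kg 0 members were called by edgeR, by DESeq2 or by limma voom, beside 0% of all genes higher and 0.0419% lower. There the median was 0.15. At an unadjusted p below 0.05 in edgeR, 8 members were higher and 1 lower, beside 4.81% and 5.15% of all genes. The 0 members that fell can be set beside the unadjusted counts, which were 2 lower with imatinib, 1 each with nilotinib 10 mg/kg, ponatinib 10 mg/kg and L-NAME, and 0 with nilotinib 30 mg/kg. In that order, 11.79%, 7.985%, 12.53%, 12.45% and 9.892% of all genes tested were lower at an unadjusted p below 0.05. DESeq2 and limma voom also called 0 members lower, while edgeR fitted on the L-NAME and control mice alone called Mrps18b lower. All 6 comparisons use the same 8 control mice.

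Short genes as a class moved in the same direction. The median transcript length of the tested members was 1230 bases, against 2517 bases over all genes tested, and 2505 tested genes were no longer than the median member. The median log2 fold change of those short genes was 0.31 with imatinib, 0.30 with the high dose of nilotinib, 0.32 with that of ponatinib and 0.34 with L-NAME, and that of the longer genes lay between -0.07 and -0.01 in these groups. Of the short genes, 16.17%, 8.06%, 18.36% and 16.05% were called higher in these 4 groups, beside 34.67%, 14.67%, 38.67% and 29.33% of the members. The short genes' medians at the low doses were 0.22 for nilotinib and 0.14 for ponatinib, beside member medians of 0.22 and 0.15. With a correction of each library for transcript length, 10 members rose with imatinib, 4 with nilotinib 30 mg/kg, 12 with ponatinib 10 mg/kg and 9 with L-NAME. In that fit Mrpl16 fell with ponatinib 10 mg/kg and Mrps18b with L-NAME, and the share of all genes called higher was 3.46%, 0.866%, 5.41% and 2.80%. With the share of reads outside genes as a covariate, 14, 0, 4 and 4 members rose, beside 2.67%, 0.245%, 1.65% and 0.922% of all genes. That share itself followed the groups. It lay above the highest control in 6 of 8 imatinib mice and in all 8 with nilotinib 30 mg/kg, ponatinib 10 mg/kg and L-NAME. The covariate fit therefore cannot separate it from treatment. The median member's log2 fold change was 0.27, 0.13, 0.23 and 0.19 in the length-corrected fit and 0.36, 0.27, 0.35 and 0.31 in the covariate fit, against 0.41, 0.33, 0.43 and 0.36 without them.

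**Figure D2:**
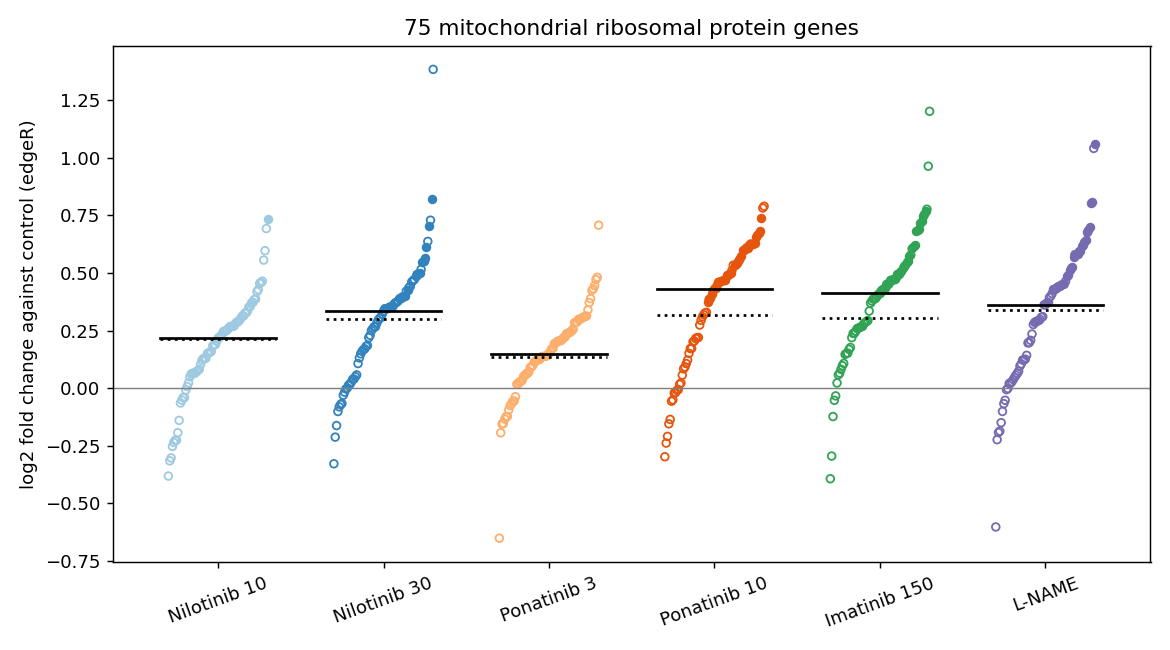
Each point is 1 of the 75 tested members, ordered by its log2 fold change against control on the vertical axis in each of the 6 groups, filled where it was called (edgeR, adjusted p below 0.05) and open otherwise. The solid line is the median of the members and the dotted line that of the 2505 short genes, and the lines lie at 0.41 and 0.31 with imatinib and at 0.36 and 0.34 with L-NAME.

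Members of both ribosomal subunits rose. Mrps30 and Mrps18a sit in the large subunit despite their names and were counted there. Of 49 tested large-subunit members, 18 rose with imatinib, 6 with nilotinib 30 mg/kg, 18 with ponatinib 10 mg/kg and 13 with L-NAME, and of 26 small-subunit members 8, 5, 11 and 9 rose. The median log2 fold change was 0.43 for the large and 0.38 for the small subunit with imatinib, and 0.43 and 0.40 with ponatinib 10 mg/kg. Members numbered up to L36 or S21, which by name have bacterial counterparts, had medians of 0.43 and 0.45 with imatinib and ponatinib 10 mg/kg, and the mitochondria-specific members 0.40 and 0.40. The difference between these classes was not tested. In all, 40 members were called in at least 1 of the 6 comparisons with control and 35 in none. The same count over all genes tested was not made, so no background share stands beside it.

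A set of 7 members rose with imatinib, nilotinib 30 mg/kg and ponatinib 10 mg/kg, namely Mrpl18, Mrpl24, Mrpl58, Mrps7, Mrps16, Mrps24 and Mrps34, and all of these but Mrpl58 also rose with L-NAME. How many of all genes tested rose with all 3 drugs was not counted, so the set has no background share. It was also not counted how many of all genes tested had no overlap between a treated group and control. The set of 7 depended on the fit, mainly through nilotinib 30 mg/kg. With the covariate for reads outside genes 0 of the 7 were called with all 3 drugs, and with the length correction 2, Mrpl58 and Mrps16. Without the deepest L-NAME library 4 were, Mrpl18, Mrpl58, Mrps16 and Mrps34, and without the filter on low counts 3, Mrpl18, Mrpl58 and Mrps34. The 5 of smallest p across the 3 drug comparisons are described next. Mrpl58, also known as ICT1, is a peptidyl-tRNA hydrolase built into the large subunit that can free stalled chains. Its gene lies at chr11:115403752-115412674 (GRCm38). In control mice it ran from 18.6 over a median of 22.5 to 27.2 CPM. With imatinib it ran from 31.1 over 38.0 to 52.1 CPM, and all 8 mice were above every control mouse. With nilotinib 30 mg/kg it ran from 28.6 over 38.9 to 43.8 CPM, also with no overlap with control. With ponatinib 10 mg/kg the median was 37.7 CPM and the highest 45.8 CPM, but 1 mouse was at 11.3 CPM, below all controls. The log2 fold changes by edgeR were 0.76 ± 0.17 (SE, adjusted p = 0.00259), 0.70 ± 0.17 (adjusted p = 0.00788) and 0.62 ± 0.17 (adjusted p = 0.0104). With L-NAME the range was 26.1 to 36.4 CPM and the log2 fold change 0.41 ± 0.17 (edgeR, adjusted p = 0.114).

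Mrps16 encodes a conserved protein of the small subunit, and loss of the human gene causes a respiratory chain deficiency. It lies at chr14:20389304-20393634. It ran from 11.8 over 14.4 to 18.1 CPM in control mice and from 18.5 over 23.3 to 30.7 CPM with imatinib, without overlap. With ponatinib 10 mg/kg it ran from 16.6 over 24.6 to 33.6 CPM and with L-NAME from 15.9 over 22.9 to 45.7 CPM, with 7 of 8 mice above all controls in each. With nilotinib 30 mg/kg it ran from 15.2 over 22.5 to 36.2 CPM, again with 7 of 8 mice above. The log2 fold changes by edgeR were 0.72 ± 0.18 with imatinib (adjusted p = 0.00698), 0.74 ± 0.18 with ponatinib 10 mg/kg (adjusted p = 0.00403), 0.81 ± 0.18 with L-NAME (adjusted p = 0.00186) and 0.61 ± 0.18 with nilotinib 30 mg/kg (adjusted p = 0.0327).

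Mrps34, at chr17:24895116-24897502, encodes a small-subunit protein needed for the stability of that subunit. In control mice it ran from 27.5 over 37.8 to 44.8 CPM. With imatinib it ran from 49.2 over 62.7 to 73.5 CPM, and all 8 mice were above every control mouse. With ponatinib 10 mg/kg it ran from 26.5 over 57.8 to 71.1 CPM and with nilotinib 30 mg/kg from 36.4 over 54.5 to 65.3 CPM, with 7 of 8 mice above control in each. The log2 fold changes by edgeR were 0.77 ± 0.17 (adjusted p = 0.00155), 0.60 ± 0.17 (adjusted p = 0.0101) and 0.57 ± 0.17 (adjusted p = 0.0271), and 0.52 ± 0.17 with L-NAME (adjusted p = 0.028).

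Mrps7, at chr11:115603925-115608036, encodes a protein of the head of the small subunit. It ran from 39.2 over 51.7 to 67.6 CPM in control mice, from 65.3 over 87.2 to 110.3 CPM with imatinib and from 66.5 over 71.9 to 82.2 CPM with L-NAME. With each of imatinib and L-NAME 7 of 8 mice were above all controls. With ponatinib 10 mg/kg the range was 54.4 to 89.7 CPM and with nilotinib 30 mg/kg 56.8 to 91.2 CPM, both overlapping control. Its log2 fold change with imatinib was 0.69 ± 0.13, with the lowest adjusted p of any member in the 9 comparisons (edgeR, adjusted p = 0.000203). It was 0.47 ± 0.13 with ponatinib 10 mg/kg (edgeR, adjusted p = 0.0079), 0.40 ± 0.13 with nilotinib 30 mg/kg (adjusted p = 0.0433) and 0.45 ± 0.13 with L-NAME (adjusted p = 0.0118).

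Mrpl18, at chr17:12911349-12916345, encodes a large-subunit protein of the family that in bacteria binds the small ribosomal RNA of the large subunit. It ran from 34.1 over 39.5 to 51.9 CPM in control mice. With nilotinib 30 mg/kg it ran from 51.2 over 58.0 to 69.0 CPM, with ponatinib 10 mg/kg from 43.8 over 60.4 to 82.8 CPM and with L-NAME from 37.5 over 66.0 to 95.1 CPM. In each of these groups 7 of 8 mice were above the highest control, and with imatinib, from 40.6 over 58.9 to 75.2 CPM, 5 of 8. The log2 fold changes by edgeR were 0.49 ± 0.13 (adjusted p = 0.0168), 0.54 ± 0.13 (adjusted p = 0.00333), 0.63 ± 0.13 (adjusted p = 0.000782) and, with imatinib, 0.43 ± 0.13 (adjusted p = 0.0255).

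**Figure D3:**
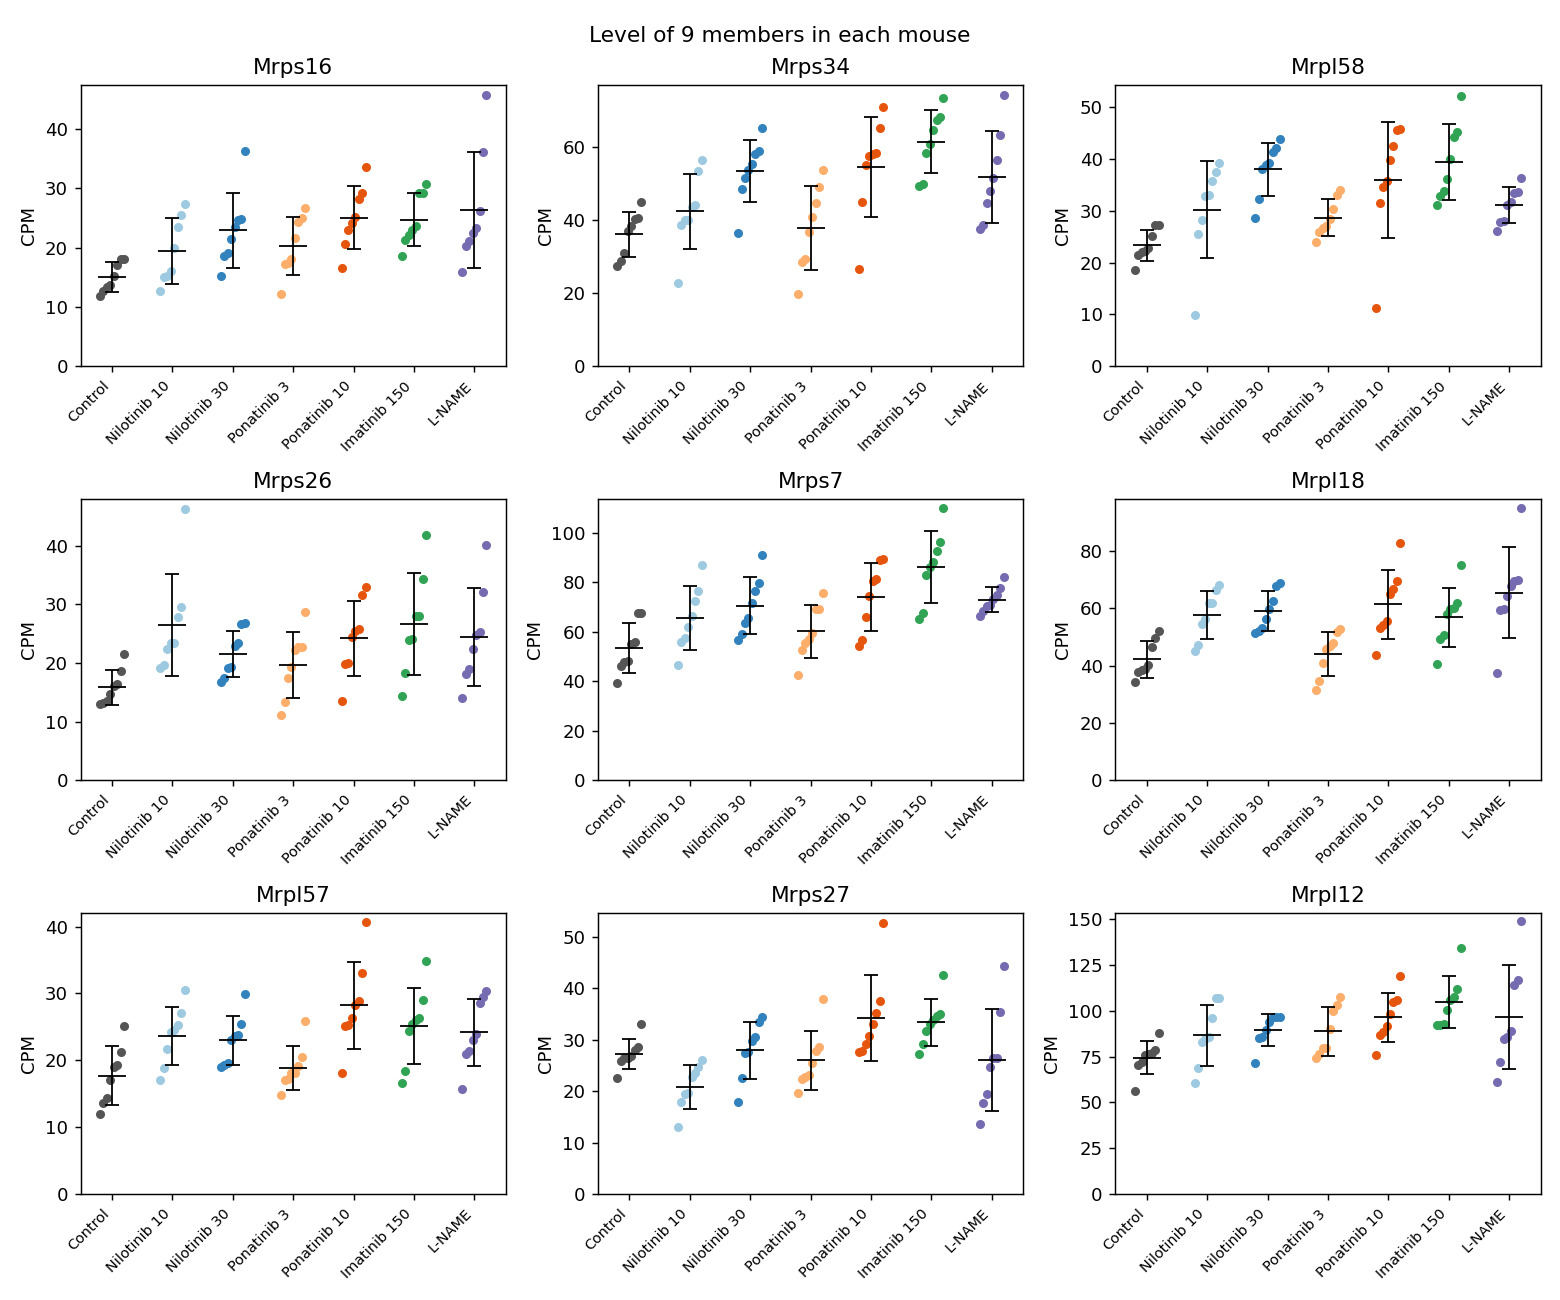
Each point is a mouse, the horizontal mark the group mean and the bar its SD (n = 8), with CPM on the vertical axis of each of 9 panels, 1 for each member. For Mrpl58, Mrps16, Mrps34 and Mrpl12 all 8 imatinib mice lie above every control mouse, and for Mrps27 the mice with nilotinib 10 mg/kg lie lower than those with ponatinib 10 mg/kg, at 13.0 to 26.0 and 27.6 to 52.8 CPM. How many of all genes tested separate groups in this way was not counted.

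The other members with a known special role were spread over the range. Mrpl10, Mrpl11 and Mrpl12 form the stalk at which translation factors dock, and MRPL12 has been reported to bind mitochondrial RNA polymerase. Mrpl12 ran from 56.0 over 76.3 to 87.8 CPM in control mice and from 92.0 over 103.2 to 134.1 CPM with imatinib, where it rose by a log2 fold change of 0.49 ± 0.13 (edgeR, adjusted p = 0.00683). It also rose with ponatinib 10 mg/kg (0.37, edgeR adjusted p = 0.0374) and L-NAME (0.38, adjusted p = 0.0392). Mrpl11 rose with imatinib (0.62, edgeR adjusted p = 0.0142) and ponatinib 10 mg/kg (0.53, adjusted p = 0.0308), while Mrpl10 had log2 fold changes between 0.03 and 0.27 in the 6 comparisons and was not called. The 3 paralogs of Mrps18 differ in place and values. Mrps18a, in the large subunit, rose with imatinib (0.50, edgeR adjusted p = 0.0488) and Mrps18c, in the small subunit, with ponatinib 10 mg/kg (0.61, adjusted p = 0.0341). Mrps18b had negative log2 fold changes in all 6 groups, from -0.65 with ponatinib 3 mg/kg to -0.12 with imatinib, and none passed in the fit of all mice. With L-NAME its value was -0.60 there, and it was called lower in the fit of L-NAME and control mice alone and in the length-corrected fit. Reads of Mrps18b and Mrps18c are in part uncertain, since 30.5% and 23.2% of their exon bases overlap other genes.

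Mrps12, part of the decoding centre, rose with imatinib only among the 6 comparisons (0.53, edgeR adjusted p = 0.0229), and its difference from the other drugs was not tested. Mrps22 had log2 fold changes of 0.43 with imatinib and 0.02 to 0.30 elsewhere, Mrps30 0.01 to 0.25 and Mrps5 -0.07 to 0.24, and none of these passed. Mrpl44, which has a ribonuclease-like fold, had values between -0.29 with imatinib and 0.10 with ponatinib 3 mg/kg, and Mrpl3 between -0.39 with imatinib and 0.13 with L-NAME, all without a call. Mrpl23, at under 1 CPM in every control mouse, had log2 fold changes of up to 1.38 ± 1.09 (nilotinib 30 mg/kg, edgeR, adjusted p = 0.561).

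Among the remaining members with small p-values, Mrpl17 rose with ponatinib 10 mg/kg (0.60, edgeR adjusted p = 0.00305), L-NAME (0.57, adjusted p = 0.00499) and imatinib (0.52, adjusted p = 0.0128). Mrpl55 rose in the same 3 groups (0.67, 0.68 and 0.68, edgeR adjusted p = 0.0046, 0.00432 and 0.00517). Mrpl24, near the exit of the peptide tunnel, rose by 0.48 to 0.51 in these groups and by 0.39 with nilotinib 30 mg/kg (edgeR, adjusted p = 0.0484). Mrpl13 rose with imatinib (0.61, edgeR adjusted p = 0.00571), L-NAME (0.52) and ponatinib 10 mg/kg (0.50). Mrpl54 rose with nilotinib 30 mg/kg (0.82, edgeR adjusted p = 0.0103), L-NAME (0.81) and imatinib (0.72), and had 0.56 with ponatinib 10 mg/kg (adjusted p = 0.0631). Mrpl45, which ties the ribosome to the inner membrane, was called with nilotinib 30 mg/kg (0.55, edgeR adjusted p = 0.0282) and had 0.09 with ponatinib 10 mg/kg. Mrps26, at chr2:130563742-130568695, ran from 13.0 over 15.4 to 21.6 CPM in control mice and from 19.2 over 23.4 to 46.3 CPM with nilotinib 10 mg/kg (log2 fold change 0.74 ± 0.20, edgeR, adjusted p = 0.0412), where 1 mouse at 46.3 CPM stood apart from the others, and the call did not hold in 3 of the other fits.

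Dose was compared directly. Between nilotinib 30 and 10 mg/kg, 0 members were called by edgeR, DESeq2 or limma voom, as were 0% of all genes in either direction by edgeR. At an unadjusted p below 0.05 in edgeR, 6 members were higher and 0 lower, beside 3.04% and 2.63% of all genes. The median member's log2 difference was 0.10, and the 95% interval of a single member reached typically 0.34 to either side. Between ponatinib 10 and 3 mg/kg, 2 members were higher and 0 lower, beside 0.971% and 0.419% of all genes, with a median of 0.23. Mrpl18 ran from 31.6 over 46.3 to 52.8 CPM at 3 mg/kg and from 43.8 over 60.4 to 82.8 CPM at 10 mg/kg, a log2 difference of 0.48 (95% interval 0.21 to 0.75, edgeR, adjusted p = 0.0481). Mrpl57, a mitochondria-specific large-subunit protein encoded at chr14:57826234-57829296, ran from 14.9 over 18.1 to 25.8 CPM and from 18.1 over 27.3 to 40.7 CPM, a log2 difference of 0.58 (95% interval 0.26 to 0.89, edgeR, adjusted p = 0.0439). The ranges overlapped for both genes. With limma voom 0 members passed in this comparison, with the covariate for reads outside genes 0 as well, and with the length correction Mrpl57 alone.

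Ponatinib and nilotinib shared a nominal dose and schedule once, at 10 mg/kg daily, and this 1 pair was compared directly. Equal dose was not equal exposure. In the paper's pharmacokinetics, plasma exposure at 10 mg/kg was higher with nilotinib than with ponatinib. It lay below the patient value listed for nilotinib and above that for ponatinib. Compound and exposure therefore cannot be told apart in this pair. Ponatinib carries an alkyne linker that nilotinib lacks. Of the 75 members 1 was higher with ponatinib and 0 lower, beside 1.03% of all genes in each direction. At an unadjusted p below 0.05 in edgeR, 12 members were higher and 0 lower, beside 8.29% and 6.99% of all genes. The called member was Mrps27, which encodes a pentatricopeptide repeat protein of the small subunit, at chr13:99344786-99415562. It ran from 13.0 over 21.2 to 26.0 CPM with nilotinib and from 27.6 over 31.9 to 52.8 CPM with ponatinib, with no overlap, and from 22.5 over 26.6 to 33.0 CPM in control mice. How many of all genes tested separated these 2 groups without overlap was not counted. The log2 difference was 0.71 (95% interval 0.38 to 1.04, edgeR, adjusted p = 0.0135), while against control it was -0.38 with nilotinib 10 mg/kg (adjusted p = 0.253) and 0.33 with ponatinib 10 mg/kg (adjusted p = 0.189). DESeq2 and limma voom called it as well, and in a fit of these 2 groups alone 0 members were called. In this comparison 3 of 8 sinusoidal endothelial markers, 1 of 9 stellate cell markers and 1 of 10 Kupffer cell and macrophage markers were lower with ponatinib, and their part in the result was not tested. Of its exon bases, 24.2% overlap 6430562O15Rik. For the shared risers no difference was called, with 95% intervals of -0.17 to 0.35 for Mrpl18, -0.08 to 0.43 for Mrps7 and -0.10 to 0.59 for Mrpl58. Imatinib was given at another dose and schedule, so its values stand beside the others without a comparison.

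Other genes of mitochondrial translation are given by list, and no difference between lists was tested. Of 5 ribosomal proteins without an Mrp symbol, 3 rose with imatinib and 3 with ponatinib 10 mg/kg, namely Gadd45gip1 (log2 fold change 0.81 and 0.72), Chchd1 (0.67 and 0.53) and Aurkaip1 (0.49 and 0.61). Gadd45gip1 also rose with nilotinib 30 mg/kg (0.64) and L-NAME (0.72), and Aurkaip1 with L-NAME (0.58), where Ptcd3 fell (-0.71, edgeR adjusted p = 0.032). Of 13 translation factors, 0 rose in any of the 6 groups by edgeR or DESeq2, up to 2 in a group were higher at an unadjusted p below 0.05, and limma voom called Mtfmt higher with ponatinib 10 mg/kg. The elongation factor Gfm1 fell with nilotinib 30 mg/kg (-0.52), ponatinib 10 mg/kg (-0.48) and L-NAME (-0.64, edgeR adjusted p = 0.00426), and the list's medians lay between 0.00 and 0.14. Of 20 tRNA synthetase and amidotransferase genes, Lars2 rose with imatinib (0.81), nilotinib 30 mg/kg (0.73), ponatinib 10 mg/kg (1.16, edgeR adjusted p = 6.21e-05) and L-NAME (0.97). In the same list Iars2 fell with ponatinib 10 mg/kg (-0.47) and Nars2 with L-NAME (-0.69), with list medians of -0.14 to 0.00. Of 25 assembly and rRNA modification genes, 1 rose with imatinib, 3 with ponatinib 10 mg/kg and 1 with L-NAME. Of all genes tested, 5.69%, 7.24% and 5.55% were called higher in these groups. Rbfa, which matures the small subunit, was among the risers in each (0.64, 0.64 and 0.58). Mpv17l2 (0.80) and Mettl17 (0.53) were the others with ponatinib 10 mg/kg.

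Of 8 genes of mitochondrial transcription and mRNA stability, 0 rose by edgeR, up to 2 in a group were higher at an unadjusted p below 0.05, and DESeq2 called Tefm (L-NAME) and limma voom Slirp (imatinib) higher. By edgeR Lrpprc, which stabilizes mitochondrial mRNAs, fell with nilotinib 10 mg/kg (-0.47, edgeR adjusted p = 0.0499), nilotinib 30 mg/kg (-0.61, adjusted p = 0.00297) and L-NAME (-0.60, adjusted p = 0.00128). Of 9 transcription factors and coactivators of mitochondrial genes, Gabpa, a subunit of GABP, fell with nilotinib 30 mg/kg (-0.50, edgeR adjusted p = 0.0147) and ponatinib 10 mg/kg (-0.41, adjusted p = 0.0302), and Esrra rose with ponatinib 10 mg/kg (0.58, adjusted p = 0.0398). Among 10 tested protein genes of mitochondrial DNA, mt-Nd1 (0.59) and mt-Nd2 (0.46) rose with imatinib and 0 were called in the other 5 groups by edgeR, where up to 3 in a group were higher at an unadjusted p below 0.05. DESeq2 and limma voom also called mt-Nd1 higher with ponatinib 10 mg/kg and L-NAME, and DESeq2 called mt-Nd1 and mt-Nd4 higher with nilotinib 30 mg/kg and mt-Nd4 with ponatinib 10 mg/kg. Nuclear subunits of oxidative phosphorylation, 80 tested, rose in 50 cases and fell in 1 with imatinib, and 53 rose and 2 fell with ponatinib 10 mg/kg, with medians of 0.59 and 0.65. With L-NAME 46 rose and 3 fell, with nilotinib 30 mg/kg 29 and 2, with nilotinib 10 mg/kg 2 and 1, and with ponatinib 3 mg/kg 0 and 0. Of all genes tested, 5.69% were called higher with imatinib, 7.24% with ponatinib 10 mg/kg, 5.55% with L-NAME, 2.34% with nilotinib 30 mg/kg and 0.468% with nilotinib 10 mg/kg. Cytosolic ribosomal proteins, 77 tested, had 28 risers with imatinib and 32 with ponatinib 10 mg/kg, with medians of 0.51 and 0.57 and 0 that fell by edgeR, DESeq2 or limma voom or at an unadjusted p below 0.05. Transcripts shorter than the median of all genes tested made up 76 of the 80 oxidative phosphorylation genes and 75 of the 77 cytosolic ribosomal protein genes, beside 59 of the 75 members.

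**Figure D4:**
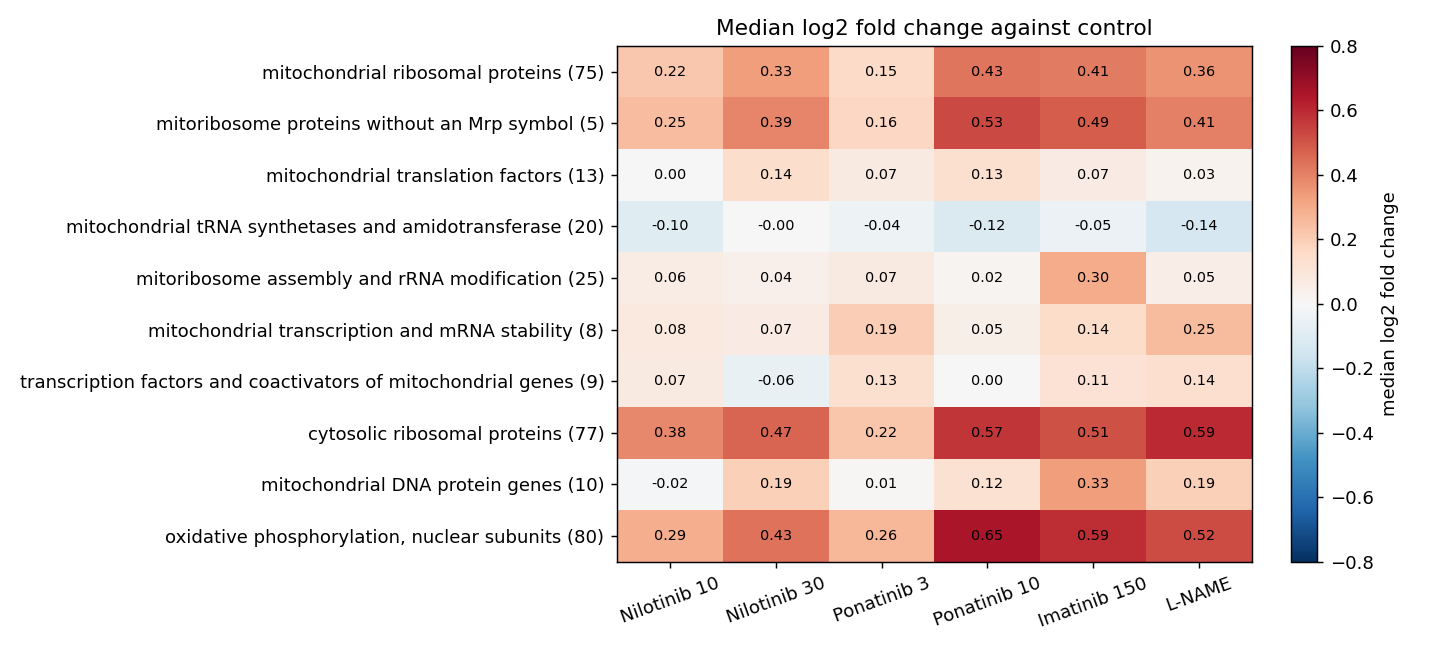
Each cell gives the median log2 fold change against control (edgeR) of a gene list, with the number of tested genes in parentheses, in each of the 6 treated groups. The mitochondrial ribosomal proteins have medians from 0.15 to 0.43, the tRNA synthetase list from -0.14 to 0.00 and the nuclear subunits of oxidative phosphorylation from 0.26 to 0.65.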

How the data were processed

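Per the labels and the study's methods, poly(A) RNA of mouse liver was sequenced, and the authors aligned reads with TopHat2 2.0.14 and Bowtie2 2.1.0 to GRCm38 and counted them per gene with HTSeq 0.6.1p1. SAMtools 0.1.18 is also named in the submitters' processing notes. The deposited values are raw counts. The annotation release and the strand setting are not given in the sources used here. Rows that name no gene were left out of library sizes, and no pair of libraries had identical counts. Labels give no pairing, so the tests took the mice as unpaired and set group differences against the spread between mice within groups.

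Counts were tested in edgeR 4.0.16 (R 4.3.3) with filterByExpr, TMM scaling and quasi-likelihood tests over 7 group means, and called at a Benjamini-Hochberg adjusted p below 0.05. On counts simulated for imatinib against control over 14314 genes, 78 of 100 changes of 1 and 20 of 100 of 0.5 on the log2 scale were recovered, with 1 false call. The simulation changed 200 genes, all above a minimum mean count, whereas 1471 genes were called with imatinib in the real data. Its recovery may therefore not carry over to them. Alternatives used DESeq2 1.42.0, limma 3.58.1, other filters, a covariate for reads outside genes, a loess correction for transcript length, and libraries left out. Lengths are the median over GENCODE vM21 basic transcripts. Members, lists and comparisons were chosen with earlier results of these data known. The text names members with a fixed role, the up to 5 called members of smallest p in each direction of each comparison, the 3 highest and 3 lowest per kilobase, the 5 of strongest support in 3 drug groups and all that were not tested. Of other lists it names called genes of smallest p, up to 3 per list and comparison. Protein sequences were not used here. Values of 1 gene of the tRNA synthetase list are not reported here.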

Additional observations from a re-analysis of the deposited data

Results flagged for a closer look

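Of 77 sets of 8 mice examined (summed level, reads outside genes and 9 members, in 7 groups), 9 held a mouse far from the rest, where chance gives about 1 in 20. The summed member level of 1 mouse with ponatinib 10 mg/kg was 1892 CPM, and the same mouse had the 11.3 CPM of Mrpl58. That mouse had the lowest value of its group for 32 of the 75 tested members, with 7743412 counted reads and 9.03% of reads outside genes. The other values that stood apart were 9.81 CPM of Mrpl58 and 46.28 CPM of Mrps26 with nilotinib 10 mg/kg, 36.23 CPM of Mrps16 and 71.69 CPM of Mrpl12 with nilotinib 30 mg/kg, and 52.75 CPM of Mrps27 with ponatinib 10 mg/kg. Reads outside genes reached 14.09% in 1 imatinib mouse and 16.75% in the deepest L-NAME mouse.

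Mrpl57 and Mrpl18 differed between the doses of ponatinib by 0.579 and 0.48 on the log2 scale, and Mrps27 differed between ponatinib and nilotinib at 10 mg/kg by 0.711, each by edgeR's test of the difference itself.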

How the results depend on the processing

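Counts of called members, in the order imatinib, nilotinib 10, nilotinib 30, ponatinib 10 mg/kg and L-NAME against control, were 26, 1, 11, 29 and 22. The covariate for reads outside genes gave 14, 0, 0, 4 and 4, and the length correction 10, 1, 4, 13 and 10. Without a filter on low counts nilotinib 10 gave 0 and nilotinib 30 gave 5. Nilotinib 10 gave 2 with DESeq2 size factors, 4 with DESeq2's test, 2 with limma voom and 2 in a fit of 2 groups. Of all genes, 0.7475%, 1.705%, 0.6707% and 0.7829% were called higher in these fits. At an unadjusted p below 0.01, nilotinib 10 gave 5, ponatinib 3 mg/kg 3, nilotinib 30 against 10 gave 1, ponatinib 10 against 3 gave 6 and ponatinib against nilotinib 10 gave 2. In that order, 2.319%, 1.397%, 0.6846%, 3.13% and 3.668% of all genes tested were higher at that cut-off. The member counts hold calls in either direction. Ponatinib 10 against 3, with 2 calls, gave 0 with limma voom, without the filter, in a fit of 2 groups and with the covariate, and 1 with the length correction. Ponatinib against nilotinib 10 gave 0 in a fit of 2 groups. Chosen after seeing the data, leaving out the deepest L-NAME library gave 6 for nilotinib 30, and leaving out the 3 libraries with 13% or more reads outside genes (1 each with imatinib, ponatinib 10 mg/kg and L-NAME) gave 6 for nilotinib 30, 0 for nilotinib 10 and 0 for ponatinib 10 against 3. The cause was not tested. With DESeq2 size factors, 47.4% of all genes called with nilotinib 10 were higher, against 33.2% with TMM.

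Of 177 values of named members, 56 were called in the main fit. Over all alternatives together, 1458 results kept direction and side of the threshold, 106 were no longer called, 23 became called and 0 called values reversed. The 106 losses all fall on the 56 called values, and the 1458 include values that were not called in either fit. No paired analysis was possible because the labels give no shared replicate numbers. In the simulated counts a change of 0.5 on the log2 scale was often missed, and members not called are not shown to be unchanged.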
